A study of Rattus norvegicus with 12 samples.

Results

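Matrix metalloproteinases are secreted or membrane-bound zinc enzymes that cut collagens, gelatin, proteoglycans and other proteins of the extracellular matrix. Most are made as inactive precursors, are activated outside the cell or at its surface, and are held in check by the tissue inhibitors of metalloproteinases. In a vein moved into an artery they are known for the turnover of the wall's matrix, for the passage of leukocytes and for the migration of smooth muscle cells into the new intima. The genes described here are Mmp2, Mmp3, Mmp7, Mmp8, Mmp9, Mmp10, Mmp12, Mmp13, Mmp14 and Mmp23. They were chosen by symbol, through the transcript each array probe was designed for, and are 10 of the 13903 genes that probes on the array name. The array holds 1 probe with 1 spot for each of them, so no member has a second probe to set against the first.

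The study measured RNA of veins from male rats, using 12 single-colour arrays in 4 groups of 3. Control rats had no operation (day 0), and the other groups were taken 7, 14 and 28 days after a bypass that joined the external jugular vein to the carotid artery. No drug or genetic change is named for any group, and the strain and age of the rats are not given in the sources used here. There was no operated control without a graft, so grafting and surgery cannot be told apart. The labels do not say that each array held a separate animal, so the p-values reflect how far these samples differ, and that difference may be technical. The tissue is whole vein, in which more cells of a type and more RNA per cell cannot be told apart. Smooth muscle and endothelial marker genes, 6 of each, were all above background at day 0, with summed levels of 717 to 1230 and 45.4 to 58.7 times the array's 75th percentile intensity, and of 116 to 234 and 7.08 to 32.1 on the 9 graft arrays.

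Between 71.9% and 82.6% of the 42136 gene spots were well above background on each array, and 0 were saturated. The scanner software marked 460 spots as non-uniform on replicate 3 of day 0 and 393 on replicate 3 of day 7, against 2 to 11 on the other arrays. The arrays fell into 4 scans by the time they were read. Neither day 7 nor day 14 arrays were read together with day 0, while 1 scan held 2 day 0 arrays and 1 day 28 array. The number of arrays limits the precision.

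Of the 10 genes, Mmp13, Mmp12, Mmp3, Mmp10, Mmp8 and Mmp7 lie close together on chromosome 8, in that order, in a cluster of 10 metalloproteinase genes (RefSeq, GRCr8). Promoters of this cluster are known for a site of the transcription factor AP-1 close to the start of transcription. The stretches of 120 bases before the start of these 6 genes, all on the plus strand, are shown because they share or lack that site, with AP-1 letters (TGAGTCA, or TGACTCA on the other strand) in capitals.
Mmp13, chr8:12782709-12782828: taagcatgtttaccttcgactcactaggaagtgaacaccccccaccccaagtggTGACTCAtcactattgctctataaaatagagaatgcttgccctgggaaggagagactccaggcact
Mmp12, chr8:12866532-12866651: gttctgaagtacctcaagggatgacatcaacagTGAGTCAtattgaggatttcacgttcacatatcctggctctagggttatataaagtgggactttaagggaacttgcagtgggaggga
Mmp3, chr8:12925161-12925280: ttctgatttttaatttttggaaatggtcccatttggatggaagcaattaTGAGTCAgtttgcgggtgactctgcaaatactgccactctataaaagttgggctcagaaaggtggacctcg
Mmp10, chr8:12974587-12974706: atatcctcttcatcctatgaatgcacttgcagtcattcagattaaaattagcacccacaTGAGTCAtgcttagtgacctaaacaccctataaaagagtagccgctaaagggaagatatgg
Mmp8, chr8:13008770-13008889: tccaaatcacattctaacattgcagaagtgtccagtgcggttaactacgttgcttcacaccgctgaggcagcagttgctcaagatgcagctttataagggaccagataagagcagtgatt
Mmp7, chr8:13132923-13133042: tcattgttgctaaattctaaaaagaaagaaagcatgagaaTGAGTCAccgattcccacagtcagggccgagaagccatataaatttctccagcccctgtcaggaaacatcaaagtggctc

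Counted from the start of transcription, the first base of the AP-1 letters was at -66 in Mmp13, -87 in Mmp12, -71 in Mmp3, -61 in Mmp10 and -80 in Mmp7. The same 5 genes had the letters TATAAA nearer the start, at -47, -39, -32, -33 and -43 in that order. Mmp8 had neither set of letters in the stretch shown. Of 33469 rat promoters in the RefSeq table, 1.93% held the AP-1 letters on either strand within 120 bases and 4.05% within 250 bases. For TATAAA the shares were 4.38% and 8.06%. A match describes letters and is not evidence of binding. Of the members elsewhere in the genome, Mmp23 on chromosome 5 had no AP-1 letters within 250 bases, and Mmp2, Mmp9 and Mmp14 are named only.

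Against unoperated vein, 8 of the 9 members that could be tested were higher at day 7 and 0 were lower, with limma and a Benjamini-Hochberg adjusted p under 0.05. Over all 21063 probes tested, 17.7% were called higher and 15.4% lower in that comparison. At day 14 again 8 were higher and 0 lower, against 20.1% and 17.4% of all probes. At day 28, 7 were higher and 0 lower, against 17.4% and 16.5%. The median difference of the 9 was 4.50 at day 7, 4.48 at day 14 and 3.40 at day 28 on the log2 scale, beside -0.03, 0.02 and 0.01 over all probes. Mmp8 lost its call at day 28, Mmp23 was called on no day, and Mmp10 was not above background on any of the 12 arrays. An F test over the 4 days called 8 of the 9, all but Mmp23, against 40.5% of all probes.

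The 3 comparisons share the day 0 arrays. The 9 tested members passed a filter of 3 arrays above background, which graft arrays alone could meet, so the count describes the 9 tested genes and not the family. With the scan as a fixed block, which leaves 5 residual degrees of freedom, 0 of the 9 were called at day 7, 2 at day 14 and 4 at day 28. At an unadjusted p under 0.05 the block gave 5, 6 and 6 of them in limma. The share of all probes at that threshold was not counted, so these 3 counts cannot be set against the array. All differences of the tested members from day 0 kept their direction under the block. Replicate 3 of day 0 was alone in its scan, so it adds nothing to these differences. Under the block, day 28 is set against day 0 by 1 day 28 array and 2 day 0 arrays. Days 7 and 14 reach day 0 only by way of the scans they shared with other graft days. The block is therefore not a comparison of 3 arrays with 3.

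**Figure D1:**
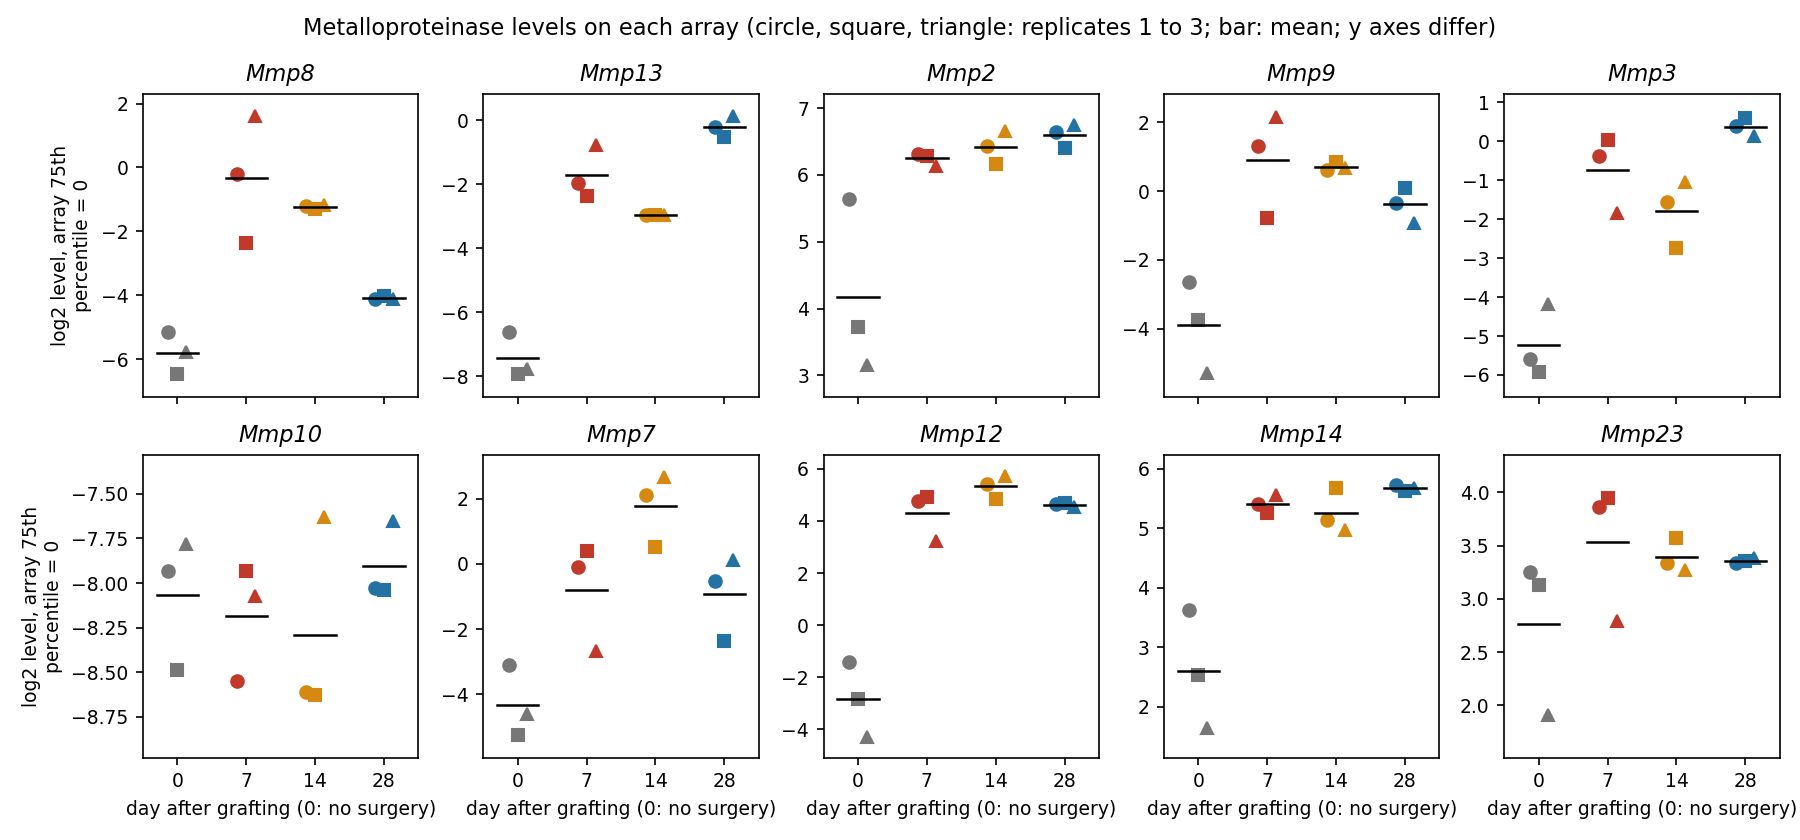
Level of each of the 10 genes on each array (log2, with 0 at that array's 75th percentile), by day. Points are arrays and bars are means of 3. Mmp10 stays between -8.63 and -7.63 on arrays where it was never above background, and the y axes differ between genes.

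Among the collagenases, which cut fibrillar collagen, Mmp8 is the enzyme stored in neutrophil granules. Its log2 level, set to 0 at each array's 75th percentile, was -5.14, -6.47 and -5.79 at day 0, where it was above background on 1 of 3 arrays. It was -0.20, -2.36 and 1.61 at day 7, a wide spread, and -1.21, -1.29 and -1.19 at day 14. At day 28 it was -4.13, -4.03 and -4.13, well below every day 7 and day 14 array and above every day 0 array. The rise was 5.48 ± 0.77 (SE) at day 7 (adjusted p = 0.000523) and 4.57 ± 0.77 at day 14 (adjusted p = 0.00118). Both calls were lost with the scan as a fixed block, at 5.41 (adjusted p = 0.405) and 4.51 (adjusted p = 0.181). The difference at day 28 was 1.70 ± 0.77 (adjusted p = 0.111).

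Between graft days Mmp8 was lower at day 28 than at day 7 by a log2 difference of -3.78 ± 0.77 (adjusted p = 0.0402). It was the 1 member called lower in that comparison, against 1.03% of all probes, and 0 were called higher, against 0.75%. That call was lost when any of 8 of the 12 arrays was left out, with adjusted p up to 0.168. It was also lost with the scan as a fixed block (adjusted p = 0.995) or a random block (adjusted p = 0.105), or with only the arrays of those days in the fit (adjusted p = 0.118). From day 14 to day 28 the difference was -2.87 ± 0.77 (adjusted p = 0.0628), with both groups of 3 arrays far apart. That comparison was called when only its own arrays were fitted (adjusted p = 0.000397).

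Summed neutrophil markers, like Mmp8, were higher on every day 7 and day 14 array than on any day 0 or day 28 array. The summed level of the 5 tested neutrophil genes (S100a8, Camp, Csf3r, Cxcr2 and Ngp) was 14.8, 2.96 and 42.5 on the day 7 arrays, in the same order of arrays as Mmp8. It was 5.74, 6.58 and 6.32 at day 14, where the highest sum stood on the array with the lowest Mmp8. At day 28 it was 0.956 to 1.19, within the day 0 range of 0.725 to 2.61, while Mmp8 lay above every day 0 array. Of those genes 4 of 5 were called higher at day 7, 2 at day 14 and 0 at day 28. Over all probes 17.7%, 20.1% and 17.4% were called higher, and the list was not tested against these shares. Ltf, which encodes lactoferrin of neutrophil granules, was not above background on any array. Their part in the result was not tested. Over the 12 arrays the genes with the most similar pattern to Mmp8 were Mcemp1, Fcar and Csf3r, with root mean square differences of 0.48, 0.54 and 0.60 log2 units among 12127 genes, where the median gene differed by 2.41. Csf3r is also in the neutrophil list.

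Mmp13, the other collagenase, which also cuts cartilage collagen and aggrecan, followed another course. Its level was -6.62, -7.93 and -7.77 at day 0, and it was not above background on any of those arrays. It was -1.95, -2.35 and -0.77 at day 7, -2.95, -2.96 and -2.96 at day 14, and -0.21, -0.51 and 0.14 at day 28. The graft arrays do not overlap those of day 0, and the day 28 arrays lie above all others. Because day 0 gives only a bound, Mmp13 was at least 28.2-fold higher at day 7, at least 11.7-fold at day 14 and at least 79.6-fold at day 28. The fit gave adjusted p values of 1.36e-05, 4.49e-05 and 6.41e-06. With the scan as a block the calls held at day 14 (adjusted p = 0.0335) and day 28 (adjusted p = 0.00446) and were lost at day 7 (adjusted p = 0.114). With normexp background correction the day 14 difference fell to 1.02 (adjusted p = 0.0663).

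From day 14 to day 28 Mmp13 rose by 2.76 ± 0.43 on the log2 scale (adjusted p = 0.00835). It was the 1 member called higher in that comparison, against 2.4% of all probes, and 0 were called lower, against 2.08%. The call was kept when each array was left out in turn, with adjusted p from 0.00167 to 0.0476, and was lost with the scan as a block. Within the 1 scan that held 2 arrays of each of those days the difference was 2.60. No member was called between day 14 and day 7 in either direction, against 1.38% of all probes higher and 1.88% lower. In limma 2 of them, Mmp7 and Mmp13, had an unadjusted p under 0.05, a threshold at which the share of all probes was not counted. The Mmp13 difference there was -1.27 ± 0.43 (adjusted p = 0.176), and the day 14 arrays were all below those of day 7. So the mean level of Mmp13 was lower at day 14 than at day 7 or day 28, but only the later step passed the test. The nearest patterns were Phyhipl, Tnn and Ptprn, at 0.87, 0.96 and 0.98 log2 units, against a median of 2.76 over genes.

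The gelatinases cut denatured collagen and the collagen of basement membranes. Mmp2, made by fibroblasts and smooth muscle cells, had a log2 level of 5.64, 3.72 and 3.16 at day 0, so unoperated vein already held it far above background. It was 6.32, 6.28 and 6.14 at day 7, 6.44, 6.17 and 6.66 at day 14, and 6.65, 6.41 and 6.74 at day 28. All graft arrays were above all day 0 arrays, and most of the spread lay at day 0, where replicate 1 was the nearest to the grafts. The rises were 2.08 ± 0.50 at day 7 (adjusted p = 0.00977), 2.25 ± 0.50 at day 14 (adjusted p = 0.00556) and 2.43 ± 0.50 at day 28 (adjusted p = 0.00483). Blocking on the scan gave 1.76, 1.95 and 2.06, and all 3 calls were lost (adjusted p from 0.113 to 0.609). The day 7 call was also lost when only the arrays of days 0 and 7 were fitted (adjusted p = 0.0801). The graft days differed from one another by 0.17 to 0.35, each with an SE of 0.50.

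Mmp9, the gelatinase of neutrophils and macrophages, had a level of -2.63, -3.76 and -5.30 at day 0. It was 1.32, -0.78 and 2.16 at day 7, 0.62, 0.83 and 0.68 at day 14, and -0.34, 0.09 and -0.92 at day 28. The graft arrays do not overlap those of day 0, and over the day 7 arrays Mmp9 ran in the same order as Mmp8 and the neutrophil sum. The rises were 4.80 ± 0.76 (adjusted p = 0.0011), 4.61 ± 0.76 (adjusted p = 0.00109) and 3.51 ± 0.76 (adjusted p = 0.00625) at days 7, 14 and 28. The differences between graft days ran from -1.29 to -0.19 with an SE of 0.76, and none passed the test. Under the scan block the differences from day 0 were 3.43, 3.15 and 2.27, and none was called (adjusted p from 0.229 to 0.507). Its nearest genes were Tlr7, Samsn1 and Lilrc2, at 0.43, 0.44 and 0.49 log2 units, and its nearest member was Mmp8 at 1.09.

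The stromelysins cut proteoglycans and other non-fibrillar matrix proteins, and can activate other metalloproteinase precursors. Mmp3 (stromelysin-1) had a level of -5.58, -5.93 and -4.18 at day 0, where 2 of 3 arrays were above background. It was -0.39, 0.02 and -1.83 at day 7, -1.57, -2.73 and -1.05 at day 14, and 0.39, 0.60 and 0.14 at day 28. Graft and day 0 arrays do not overlap, and the day 28 arrays were above all others. The rises were 4.50 ± 0.59 (adjusted p = 0.000378), 3.45 ± 0.59 (adjusted p = 0.00138) and 5.61 ± 0.59 (adjusted p = 0.000153). Under the scan block only the last was called, at 5.90 ± 0.86 (adjusted p = 0.0153).

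From day 14 to day 28 the Mmp3 difference was 2.16 ± 0.59 (adjusted p = 0.0677), short of the threshold, and within the shared scan it was 2.38. It passed when replicate 3 of day 0 (adjusted p = 0.0349) or replicate 3 of day 7 (adjusted p = 0.0288) was left out, the arrays with non-uniform spots. Mmp3 and Mmp13 were each other's nearest member, at 1.16 log2 units. Phyhipl was among the 3 nearest genes of both.

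Mmp10 (stromelysin-2) gave intensities of 1.38 to 3.92 on all 12 arrays and was not above background on any. Its AP-1 and TATAAA letters lie at -61 and -33, in the sequences shown above, beside those of cluster members that were called higher. Mmp1, the neighbouring gene between Mmp3 and Mmp10, has AP-1 letters at -84 and was likewise above background on no array. Mmp8, without the letters in its stretch, was called higher at days 7 and 14. Mmp27 and Mmp20, in the same cluster, also had no AP-1 letters within 250 bases. Mmp27 was called lower on each graft day, and Mmp20 was not called. No relation between these letters and the calls was tested.

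**Figure D2:**
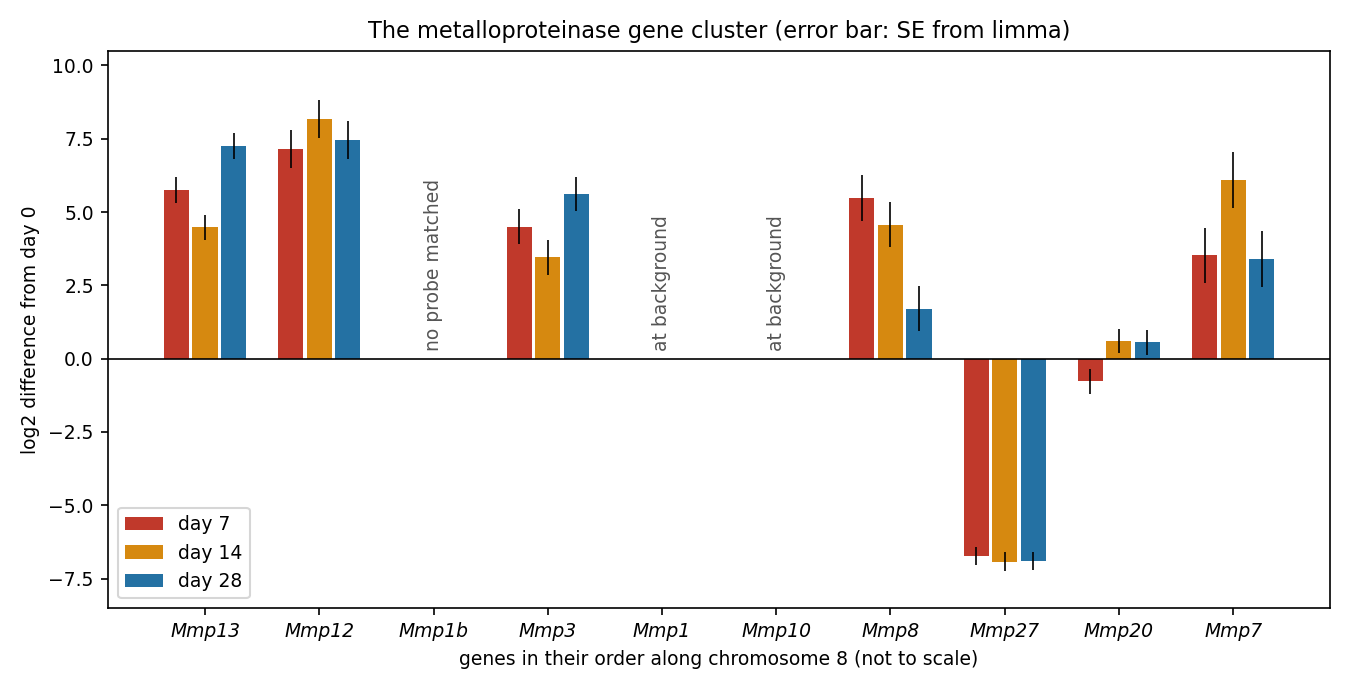
Log2 difference from day 0 at days 7, 14 and 28 (bars, with SE) for the metalloproteinase genes of chromosome 8 in their order along it, not to scale. Mmp27 lies below 0, and Mmp8 and Mmp7 on either side of Mmp27 and Mmp20 lie above 0. Mmp10 and Mmp1 were at background, no probe was matched to Mmp1b, and the bars of Mmp13 and Mmp27 set a measured group against values at background. Mmp20 was above background on 0 arrays at days 0 and 7 and on 2 of 3 at days 14 and 28, so its day 7 bar has background on both sides.

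Mmp7 (matrilysin), a small metalloproteinase best known from epithelia, was highest at day 14. Its level was -3.11, -5.25 and -4.60 at day 0 and -0.11, 0.40 and -2.68 at day 7. It was 2.12, 0.52 and 2.65 at day 14, and -0.53, -2.35 and 0.13 at day 28. All graft arrays were above all day 0 arrays, and every day 14 array was above every other array. The rise was 6.08 ± 0.95 at day 14 (adjusted p = 0.00076), 3.52 ± 0.95 at day 7 (adjusted p = 0.0167) and 3.40 ± 0.95 at day 28 (adjusted p = 0.0194). The peak itself was not called: day 14 differed from day 7 by 2.56 ± 0.95 (adjusted p = 0.217), and day 28 from day 14 by -2.68 ± 0.95 (adjusted p = 0.13). Within single scans these differences were 2.92, from 1 day 14 array and 3 day 7 arrays, and -3.02, from 2 arrays of each day.

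The day 7 and day 28 calls of Mmp7 are not firm. The day 7 call was lost without replicate 2 of day 0 (adjusted p = 0.0586), replicate 1 of day 7 (adjusted p = 0.0616) or replicate 2 of day 7 (adjusted p = 0.063). The day 28 call was lost without replicate 2 of day 0 (adjusted p = 0.0649), replicate 1 of day 28 (adjusted p = 0.0657) or replicate 3 of day 28 (adjusted p = 0.0704). With normexp background correction both were lost, at 2.19 (adjusted p = 0.07) and 2.10 (adjusted p = 0.0908). Under the scan block the differences were 4.41, 7.34 and 4.31 at days 7, 14 and 28, and none was called (adjusted p from 0.087 to 0.572).

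Markers of other tissues were summed on the same arrays as Mmp7. The summed level of 3 mesothelium genes (Msln, Upk1b and Wt1) was 5.71, 0.194 and 0.0677 at day 0, with Wt1 not above background. It was 17.9, 16.9 and 4.62 at day 7, 22.3, 18.0 and 25.3 at day 14, and 19.6, 16.9 and 22.5 at day 28. The lowest array of each graft day was the same for this sum and for Mmp7, but the sum at day 28 overlapped that at day 14, where Mmp7 did not. Skeletal muscle genes, 7 in all, summed to 9.20, 7.47 and 10.9 at day 0, 12.9, 13.4 and 13.4 at day 7, 55.1, 14.6 and 70.7 at day 14 and 357, 39.5 and 676 at day 28. At days 14 and 28 they ran in the same order of arrays as Mmp7, at days 0 and 7 they did not, and their day 28 sums did not fall with Mmp7. Epithelial and gland genes, 6 in all, summed to 5.71 to 8.40 at day 0 and to 2.45 to 5.62 after grafting. Their sums ran in the opposite order of arrays to Mmp7 at days 0, 14 and 28 and in the same order at day 7. Called higher were 1, 2 and 3 of them, and lower 2, 1 and 1, at days 7, 14 and 28. The shares of all probes were 17.7%, 20.1% and 17.4% higher and 15.4%, 17.4% and 16.5% lower, and the list was not tested against them. The part of these markers in the result was not tested. Mmp7's nearest genes were RT1-Db1, Anxa10 and RT1-Ba, at 0.90, 0.98 and 1.05 log2 units, 2 of which encode class II histocompatibility proteins.

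**Figure D3:**
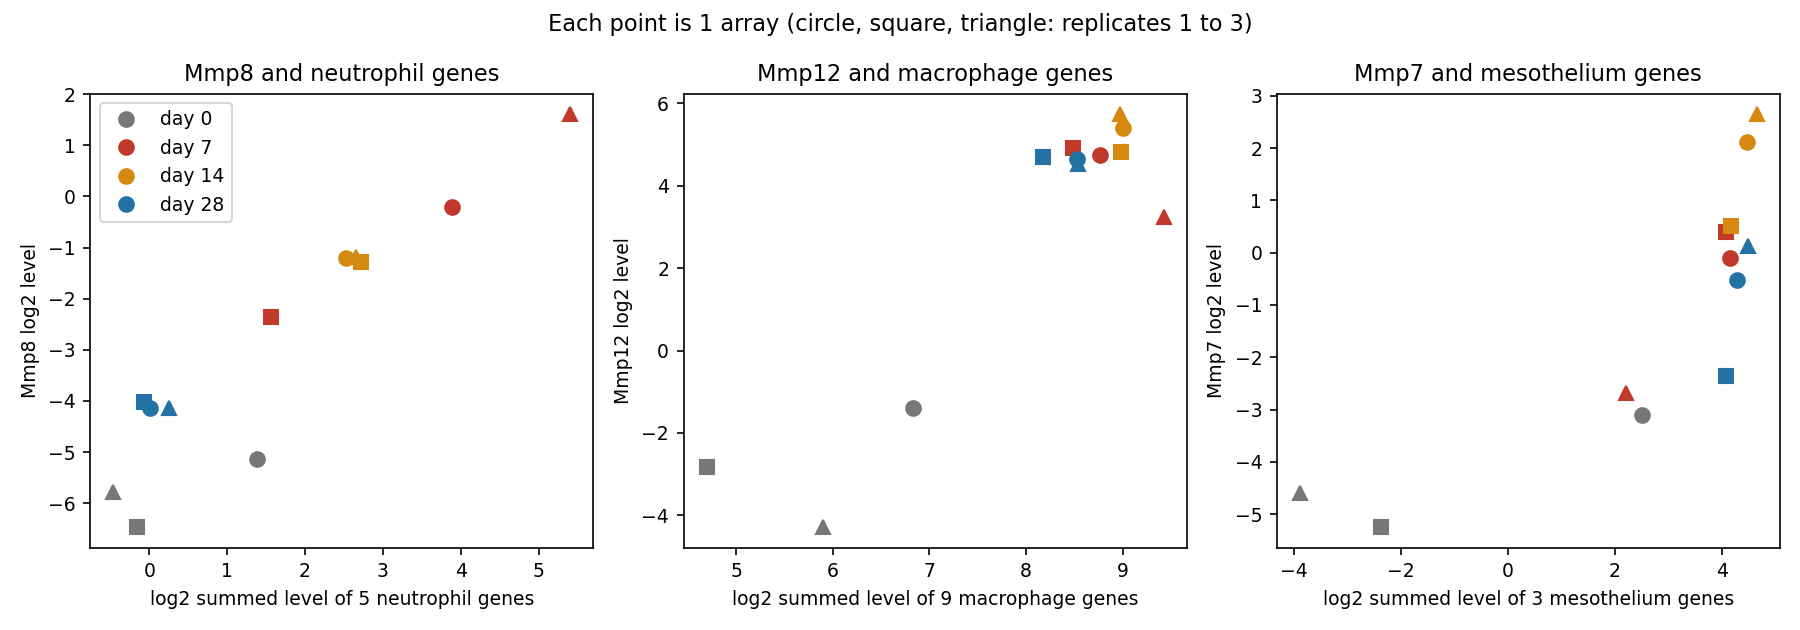
Log2 level of Mmp8, Mmp12 and Mmp7 on each of the 12 arrays (y axes) against the log2 summed level of neutrophil, macrophage and mesothelium genes (x axes). The day 7 arrays spread widely along the neutrophil axis, from 2.96 to 42.5 on the linear scale. The day 0 arrays lie lowest for Mmp12.

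Mmp12, the macrophage elastase, rose on each graft day. Its level was -1.40, -2.82 and -4.29 at day 0, above background on each array. It was 4.75, 4.91 and 3.24 at day 7, 5.40, 4.83 and 5.74 at day 14, and 4.64, 4.70 and 4.54 at day 28, so the gap to day 0 was far wider than either spread. The rises were 7.14 ± 0.65 (141-fold, adjusted p = 4.51e-05), 8.16 ± 0.65 (286-fold, adjusted p = 1.62e-05) and 7.46 ± 0.65 (176-fold, adjusted p = 5e-05). Blocking on the scan gave 6.17, 7.27 and 6.65, called at day 14 (adjusted p = 0.0184) and day 28 (adjusted p = 0.0104) but not at day 7 (adjusted p = 0.147). The graft days differed by 1.02 at most, with an SE of 0.65.

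In raw intensity Mmp12 read 252, 69.7 and 43.1 at day 0, and 6358 to 39159 on the 9 graft arrays. Summed macrophage genes, 9 tested, were at 114, 25.9 and 59.8 at day 0, at 358 to 686 at day 7, 503 to 513 at day 14 and 289 to 371 at day 28. Of these 9 genes 7 were called higher at day 7, 8 at day 14 and 6 at day 28, and Marco was at background on every array. The shares of all probes called higher were 17.7%, 20.1% and 17.4%, and the list was not tested against them. Among grafts, replicate 3 of day 7 had the highest macrophage sum and the lowest Mmp12. The part of the macrophage genes in the result was not tested. The nearest genes were Dio3, Slc6a12 and Cx3cr1, the last a chemokine receptor of monocytes and macrophages, at 0.78, 0.88 and 0.89 log2 units, against a median of 3.38.

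Of the membrane-bound members, Mmp14 cuts collagen at the cell surface and activates the Mmp2 precursor. Its level was 3.63, 2.54 and 1.65 at day 0, then 5.40, 5.25 and 5.55 at day 7, 5.14, 5.67 and 4.97 at day 14, and 5.73, 5.63 and 5.68 at day 28. The graft arrays do not overlap those of day 0, and they lie within a narrow band. The rises were 2.79 ± 0.41 (adjusted p = 0.000668), 2.65 ± 0.41 (adjusted p = 0.000692) and 3.07 ± 0.41 (adjusted p = 0.000498). Of these only the day 28 difference was called with the scan as a block, at 2.59 ± 0.48 (adjusted p = 0.0291). Mmp2 and Mmp14 were the closest pair of members, at 0.43 log2 units over the 12 arrays. The nearest genes to Mmp14 were Tgfb1, Col5a3 and Cd276, at 0.24, 0.25 and 0.26. Those nearest to Mmp2 were Dagla, Cdkn1a and Vmp1, at 0.22, 0.24 and 0.24.

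Mmp23, an unusual membrane-anchored member, stood apart from the others. Its level was 3.25, 3.13 and 1.91 at day 0, 3.86, 3.95 and 2.79 at day 7, 3.34, 3.57 and 3.27 at day 14, and 3.34, 3.35 and 3.38 at day 28. Day 7 overlaps day 0, and the day 14 and day 28 arrays lie just above the highest day 0 array. The differences were 0.77 ± 0.38, 0.63 ± 0.38 and 0.59 ± 0.38 (adjusted p = 0.149, 0.219 and 0.25). Replicate 3 was the lowest array at day 0 and at day 7, and these are the arrays with non-uniform spots. Without both of them the day 7 difference was 0.71 with an adjusted p of 0.00679. The nearest genes were Gorasp1, Zfp787 and Kcnt1, at 0.18, 0.18 and 0.19 log2 units, against a median of 0.67.

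Several members shared 1 feature at day 0. Replicate 1 was the highest of the 3 day 0 arrays for Mmp2, Mmp7, Mmp9, Mmp12, Mmp14 and Mmp23, which were above background on all 3. The same array had the highest sums of macrophage genes (114), neutrophil genes (2.61) and mesothelium genes (5.71) at day 0. It also had the highest sums of fibroblast (349), endothelium (58.7), adipocyte (27.7), T and NK cell (8.11) and chondrocyte (0.465) genes. It was not the highest for osteoclast-like macrophage, smooth muscle, epithelial and gland, skeletal muscle or mast cell genes. Its part in the spread was not tested. No member's call against day 0 was lost when replicate 1 of day 0 was left out.

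**Figure D4:**
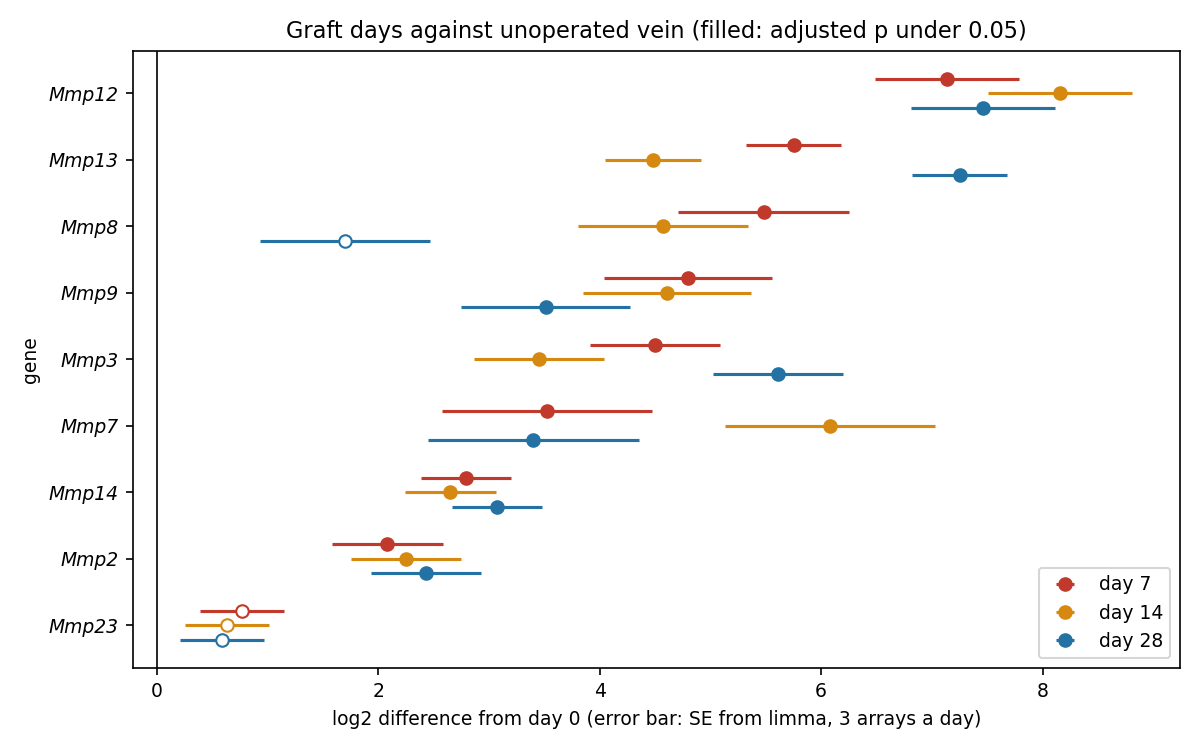
Log2 difference from day 0 with its SE at days 7, 14 and 28 for the 9 tested members, from Mmp12 at the top to Mmp23 at the bottom. Filled points passed an adjusted p under 0.05. The day 28 point is the leftmost of the 3 for Mmp8 and the rightmost for Mmp13 and Mmp3.

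**Figure D5:**
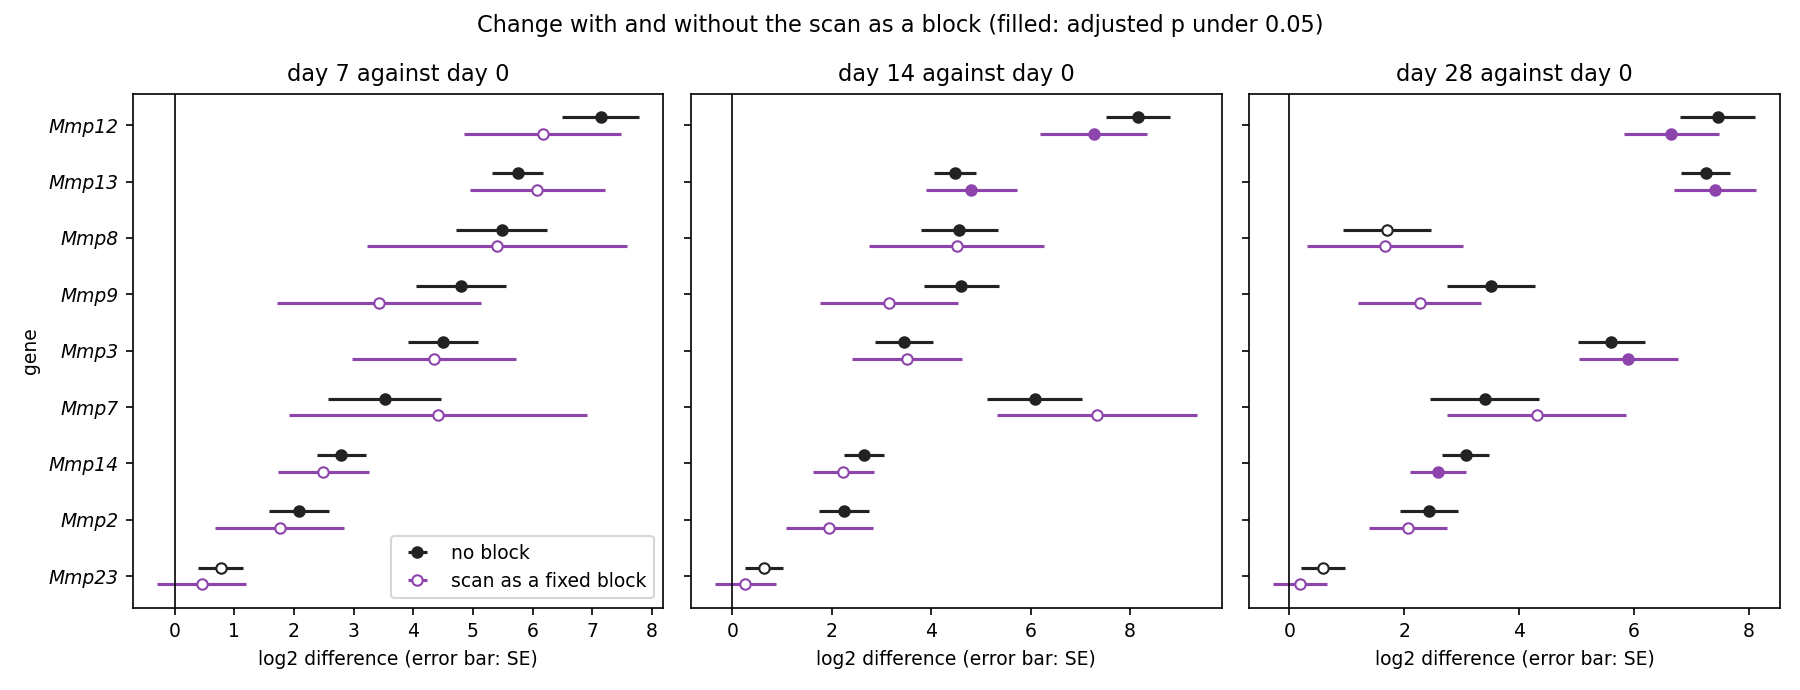
The same differences without a block and with the scan as a fixed block, 1 panel per graft day, with SE. The points keep their side of 0, the error bars widen, and 0, 2 and 4 members stay filled at days 7, 14 and 28 under the block.

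The remaining genes of the family were called in both directions. Of 12 further metalloproteinase genes, 10 were on the array and 8 were tested, and at each graft day 1 was higher, 2 were lower and 5 were not called, with medians of -1.05, -0.70 and -0.08. Over all probes 17.7%, 20.1% and 17.4% were higher and 15.4%, 17.4% and 16.5% lower at days 7, 14 and 28, and counts of 1 and 2 of 8 lie near those shares. Whether these 8 genes differ from the members was not tested. Mmp27, which lies in the chromosome 8 cluster between Mmp8 and Mmp20, had levels of -2.41, -1.24 and -1.64 at day 0. After grafting it was above background on no array, and it was at least 30.1-fold lower at day 7, at least 35.3-fold at day 14 and at least 40.5-fold at day 28 (adjusted p = 9.87e-07, 7.55e-07 and 1.26e-06). Mmp17, a membrane-anchored member, fell by 3.21 ± 0.33, 3.29 ± 0.33 and 2.96 ± 0.33 at days 7, 14 and 28 (adjusted p = 9.31e-05, 6.4e-05 and 0.000218). Mmp19 rose by 1.49 ± 0.30, 1.22 ± 0.30 and 1.13 ± 0.30 (adjusted p = 0.00401, 0.00974 and 0.0159). The Mmp27 calls held with the scan as a block on all 3 days and those of Mmp17 at days 14 and 28, while Mmp19 lost its calls. Without replicate 1 of day 0 the number lower was 4, 4 and 3, and without replicate 3 of day 0 it was 4 at day 7.

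The counts of the lists that follow stand beside the same shares of all probes, and no list was tested against them. Of 9 tested inhibitors, 4 were higher and 1 lower at day 7, 5 and 1 at day 14, and 4 and 0 at day 28. Timp3, the inhibitor bound to matrix, was at 4.23, 4.37 and 4.59 at day 0, 1.98, 2.21 and 1.15 at day 7, 2.05, 1.80 and 2.21 at day 14, and 3.76, 3.58 and 4.08 at day 28. It fell by 2.62 ± 0.27 at day 7 (adjusted p = 9.53e-05) and by 2.38 ± 0.27 at day 14 (adjusted p = 0.000128). At day 28 its difference from day 0 was -0.59 ± 0.27 (adjusted p = 0.12), and from day 14 it rose by 1.79 ± 0.27 (adjusted p = 0.00801). All these Timp3 calls were lost with the scan as a block. The secreted inhibitors Timp1, Timp2 and Timp4, named after their values were seen, were not called on any graft day, with differences between -0.57 and 0.69 and SEs of 0.42, 0.22 and 0.41.

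Inhibitors of other or broader kinds were among those that rose. A2m, alpha-2-macroglobulin, which traps proteinases of all classes, rose by 5.84 ± 0.54, 6.61 ± 0.54 and 5.23 ± 0.54 (adjusted p = 4.71e-05, 1.8e-05 and 0.000132). Its day 7 call was lost with the scan as a block (adjusted p = 0.196). Serpinb2, an inhibitor of plasminogen activators, was at background at day 0 and at least 5.01-fold higher at day 7 and 11.9-fold at day 28 (adjusted p = 0.000481 and 0.000118). With the scan as a block 0, 1 and 2 inhibitors were called higher on the 3 days.

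Among 9 tested activators of the precursors and plasmin system genes, 4 were higher on each graft day, and 2 were lower at day 7 alone. Plau, the urokinase that turns plasminogen into plasmin, rose by 1.30, 2.22 and 0.87, and its receptor Plaur by 2.13, 2.31 and 2.31. Plg, plasminogen itself, fell by 1.69 at day 7, and Cma1, a mast cell chymase, by 2.72 at day 7. The Cma1 call was lost under 14 of the 24 alternatives. Under the scan block 0, 1 and 1 of the rises were called, and without replicate 1 of day 28 the count higher at day 28 was 2.

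Of 11 tested inducers and partners, 8 were higher at days 7 and 14 and 5 at day 28, and 0 were lower. The cytokines Tnf, Osm and Il1b induce metalloproteinase genes in many cells. Tnf, above background on 2 of 3 day 0 arrays, rose by 4.79 ± 0.77, 4.10 ± 0.77 and 3.45 ± 0.77. Osm, at background at day 0, was at least 4.06-fold, 10.1-fold and 2.38-fold higher. Il1b rose by 3.14 ± 0.85 at day 7, where its arrays overlapped those of day 0, and by 3.28 ± 0.85 at day 14. Its call was lost under 5 of the 24 alternatives at day 7 and 1 at day 14. Spp1, osteopontin, a ligand and substrate of metalloproteinases, rose by 7.35 ± 0.29, 6.99 ± 0.29 and 6.89 ± 0.29 (adjusted p = 7.42e-07, 6.49e-07 and 1.26e-06), and those calls held under the scan block. Spp1 also stands in the substrate list below. Under the block 1, 3 and 2 genes of the list were called higher, and with normexp background correction 4, 5 and 3. Without replicate 1 of day 0 the count at day 28 was 8.

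Of 10 tested transcription factors known at metalloproteinase promoters, 4 were higher on each graft day and 0 lower. They were Fosl1, an AP-1 subunit above background on 1 of 3 day 0 arrays, at 3.29, 3.24 and 3.68, and Spi1, the myeloid factor, at 2.82, 2.75 and 2.22. The others were Cebpb at 2.03, 1.72 and 1.81, and Etv5, of the Ets family, at 1.87, 1.76 and 1.94. The Cebpb calls were lost under 6, 9 and 8 of the 24 alternatives at days 7, 14 and 28. The AP-1 genes Jun, Junb and Fos, named after their values were seen, were not called on any graft day. Without replicate 1 of day 0 the count was 7 at days 14 and 28. With normexp background correction it was 2 on each graft day, and with the scan as a block 0, 0 and 1 were called.

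Of 13 tested substrates, 7 were higher at day 7, 7 at day 14 and 6 at day 28, while 0, 2 and 1 were lower. Acan, the cartilage proteoglycan aggrecan, was at background at day 0 and at least 146-fold, 25.4-fold and 273-fold higher at days 7, 14 and 28. With the scan as a block it was called at day 28 but not at day 7 (adjusted p = 0.311) or day 14 (adjusted p = 0.204). Its mean among graft days was lowest at day 14, as for Mmp13 and Mmp3, with levels there of -1.93, -0.60 and -2.99. Its differences between graft days were not called. Col5a1, a fibrillar collagen, rose by 3.59, 3.60 and 3.62 ± 0.28. Bcan, the brain proteoglycan brevican, was above background at day 0 and on no day 14 array, at least 95.6-fold lower, and fell by 3.42 at day 28. With the scan as a block 1, 2 and 3 substrates were called higher.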

How the data were processed

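The authors' deposited scanner files give spot intensity on a linear scale from Agilent Feature Extraction 11.0.1.1, corrected for background per the file headers. The deposited table of processed values is log2 as judged from its values: column medians were 7.149 to 7.153 and each column correlated best with its own array (r from 0.9936 to 0.9992), while its normalization is not given in the sources used here and its centring stays unknown. Labelled RNA had been depleted of ribosomal RNA and primed along its length, per the labels' protocols.

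From the scanner values, 1417 control spots and spots marked as outliers were left out, and log2 of the processed signal minus each array's 75th percentile was taken. The test took the 21063 probes that 3 or more of the 12 arrays read well above background. RefSeq accessions named 14294 of 24684 probes with 1 symbol, 0 with several and 10390 with none. For genes with more than 1 probe the brightest was used. limma 3.58.1 (R 4.3.3) estimated the mean of each day (8 residual and 2.32 prior degrees of freedom), with Benjamini-Hochberg adjustment over all probes tested and calls were made at an adjusted p under 0.05. The fit was tested on simulated data. Python 3.11.15, NumPy 2.4.6, pandas 2.3.3 and Matplotlib 3.10.9 did the rest. A probe at background on all arrays of a day has only a bound there: "at least N-fold" sets the bright group's mean against a floor, the lowest value above background on each dim array or the probe's own where that is larger.

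Marker sums add linear levels relative to the 75th percentile. Pattern likeness is the root mean square difference of centred log2 values over 12 arrays. Genes named were all members, up to 4 called genes of each pathway list with the largest change from day 0, and the 3 genes nearest each member. A gene that this rule also names is not reported here. The members and lists were chosen with earlier results of these data known. Arrays read at the same time are called a scan, since the files give no slide. Replicates were numbered in accession order, which pairs nothing. Alternatives were median and quantile scaling, normexp (offset 50, on the median spot signal), the deposited table, other dim-probe filters, outlier spots kept, scan as a fixed or random block, only the arrays compared, array weights, and leaving out arrays.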

Additional observations from a re-analysis of the deposited data

Results flagged for a closer look

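Mmp13 and Mmp8 were the members with a called difference between graft days. Mmp13 rose by 2.76 on the log2 scale from day 14 to day 28, with every day 28 array above every day 14 array. Mmp8 had a difference of -3.78 from day 7 to day 28, with every day 28 array below every day 7 array, and its day 7 arrays ran from -2.36 to 1.61. Such gaps between arrays were seen for 6 of the 9 tested members in the first comparison and 5 in the second. Their share over all probes was not counted. Both calls were lost with the scan as a fixed block, and the Mmp8 call was kept in 4 of the 12 fits that left out 1 array.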

How the results depend on the processing

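Of the 9 tested members' differences, those against day 0 kept their direction under every alternative run. Calls against day 0 were lost mainly with the scan as a fixed block, under which the members called were 0 at day 7, 2 at day 14 and 4 at day 28, 3 in the F test, and 0 for day 28 against day 14 and against day 7. Calls over all probes went under that block from 6975 to 55 at day 7, 7901 to 1034 at day 14, 7136 to 1363 at day 28 and 8529 to 811 in the F test, and between graft days from 687 to 28, 944 to 124 and 375 to 0. Normexp gave 3100, 3529, 2594, 3275, 55, 135 and 92 in the same order. The cause was not tested.

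For day 14 against day 7 the members called were 5 with array weights and 2 without the arrays that hold many non-uniform spots, against 0. For day 28 against day 14 they were 7 with weights, 5 with only the arrays compared and 4 without those arrays, against 1. For day 28 against day 7 they were 7 with weights, 0 with only the arrays compared, 0 with the scan as a random block and 2 without those arrays, against 1. All probes called in these comparisons were 10668, 16421 and 13442 with weights, and 2427, 4805 and 934 without those arrays. Only the arrays compared gave 2887 at day 7, 4635 at day 28, 6353 for day 28 against day 14 and 178 for day 28 against day 7, where the random block gave 115. Leaving out each array gave 7 to 9 members at day 7, 8 at day 14, 6 to 8 at day 28, 0 for day 14 against day 7, 1 to 3 for day 28 against day 14 and 0 to 2 for day 28 against day 7. For all probes that range was 225 to 1263, 163 to 2267 and 34 to 643 between graft days and 4573 to 8414 at day 28.

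Reversals touched uncalled differences alone. For day 28 against day 7, Mmp12 was -0.11 with weights and -0.21 without the arrays with non-uniform spots (leave-one-out -0.21 to 0.63), Mmp7 was 0.03 with median scaling (-1.06 to 0.60), and Mmp23 was 0.11 with normexp (-0.54 to 0.03). For day 14 against day 7, Mmp14 was 0.07 with normexp, 0.07 with quantile scaling and 0.07 in the authors' deposited table (-0.35 to 0.00). Mmp23 was 0.10 with normexp (-0.51 to 0.07), and without the arrays with non-uniform spots Mmp8 was 0.05 (-1.94 to 0.05) and Mmp9 was 0.44 (-1.03 to 0.44). For day 28 against day 14, Mmp23 was 0.10 with median scaling and 0.01 with normexp (-0.10 to 0.05). Against day 0, Timp1 at day 7 was -0.12 with weights, -0.08 with normexp and -0.40 without the arrays with non-uniform spots (-0.16 to 0.44), and at day 28 it was -0.01 with weights and -0.13 without those arrays (-0.15 to 0.39). Timp4 at day 14 was 0.20 with the fixed block, 0.03 with the random block and 0.00 in the authors' deposited table (-0.55 to 0.23), and Timp2 there ran from -0.25 to 0.07.

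Averaging probes changed nothing, since each member has 1. Array weights ran from 0.08 to 25.43, so a few arrays dominate that fit. Normexp moved the median of all probes to 0.44 at day 7 and -0.16 at day 28, and to -0.37 for day 14 against day 7 and -0.48 for day 28 against day 7. Of all probes, 505 were higher and 439 lower for day 28 against day 14, and 758 and 341 with median scaling. For day 28 against day 7 the split was 158 and 217, and 302 and 182 with median scaling, 22 and 70 with normexp, and 228 and 197 in the authors' deposited table. No paired analysis was possible because all arrays carry the same replicate number in the labels. Members near background (Mmp8, Mmp3 and Mmp13 at day 0) are limited by their signal over background.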

Other observations

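Mmp11, a member of the wider family also called stromelysin-3, gave an intensity of 34277 on replicate 3 of day 0, against 1295 and 1349 on the other 2 day 0 arrays and 792 to 1178 on the graft arrays that gave a value. Its spot on replicate 3 of day 7 was marked as an outlier by the scanner software and left out. These are the arrays with 460 and 393 non-uniform spots. The same pair had the highest summed levels of 5 mast cell genes, at 145 and 86.4, against 1.36 to 3.72 on the other 10 arrays. Tpsb2 alone made up most of both sums, with log2 levels of 7.17 and 6.43, against 0.09 to 1.69 on the other arrays. Cma1, of the same list, was at -3.73 and -5.47, the lowest level of its day on both arrays. The cause was not tested.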
